A study of Mus musculus with 4 samples.

Results

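Collagen genes were taken as every gene symbol of the feature tables that reads Col, a number, a and a number, which gave 44 of 32285 genes. The data were single-cell transcript counts (unique molecular identifiers, UMIs) from lymph nodes (inguinal, axillary and brachial, pooled) of C57BL/6 females aged 12 weeks, sorted as live cells negative for CD45 and CD31. In batch 1, the control library came from 6 Ccl19-Cre x R26R-EYFP mice and the Notch2 cKO library from 6 mice, not their littermates, that carried Ccl19-Cre, R26R-EYFP and Notch2 fl/fl. In batch 2, the control library came from 3 mice given as Notch2 fl/fl without Cre, although the library's title names Ccl19-Cre, and the Notch2 cKO library came from 3 littermates that were Ccl19-Cre x Notch2 fl/fl. The Ccl19 promoter drives Cre in lymph node fibroblasts, so cells that never expressed Ccl19 keep Notch2, and Cre presence, reporter and littermate status differed between the batches. Each library was 1 replicate, which gave 2 libraries per genotype.

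Collagens are triple-helical proteins of the extracellular matrix. Fibrillar collagens bear load, basement membrane collagens form sheets around vessels and nerves, beaded-filament collagens link cells to fibrils, and fibril-associated collagens coat fibril surfaces. In lymph nodes, reticular cells wrap a core of fibrillar collagen in a basement membrane sheath and form the conduits of the T zone. Adventitial fibroblasts surround larger vessels, mural cells (pericytes and smooth muscle) ensheathe small vessels, and Schwann cells accompany nerves. Notch2 is a receptor whose cleaved domain acts on genes through the DNA-binding protein RBPJ.

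The 4 libraries held 21533049 to 119002408 UMIs in 8491 to 18482 barcodes, and batch 1 was the shallower batch, with a median of 2123 and 2960 UMIs per retained cell against 6169 and 7604.5. Between 80 and 129 barcodes of a library were shared with another library. Cells were assigned by marker genes that included no collagen. The reticular gate (T-zone and B-zone chemokine and cytokine genes) held 5568, 4468, 7229 and 6994 cells in control 1, Notch2 cKO 1, control 2 and Notch2 cKO 2, an order kept throughout, and 513, 529, 1184 and 623 cells lay near its threshold. The adventitial gate held 119, 333, 258 and 126 cells, the mural gate 16, 20, 547 and 368, and the Schwann gate 0, 1, 91 and 76. Adventitial cells needed at least 2 UMIs of general fibroblast markers and mural cells could have at most 1. The reticular and Schwann gates had no such limit. How far these limits set the collagen levels of the gates was not tested. Sums of fewer than 20 cells were left out, so mural values rest on 3 libraries and Schwann values on the 2 of batch 2. Levels are UMIs per 1000000 UMIs of the gate (CPM). The assay counts 1 UMI per captured molecule at its 3′ end, so CPM was not divided by gene length.

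Notch2 itself read 40.8, 15.1, 55.2 and 36.8 CPM in the reticular gate and was lower in the Notch2 cKO libraries (log2 difference -1.04, SE 0.22, adjusted p = 0.0269, quasi-likelihood test of edgeR, Benjamini-Hochberg over all genes). In the adventitial gate it read 79.9, 95.1, 134 and 104 CPM, with a log2 difference of -0.16 (SE 0.32, adjusted p = 0.999, same test). The labels used here name no deleted exons, so a 3′ count does not check the deletion.

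All 44 collagens had a UMI in at least 1 library. UMIs of 41 were found in every library, and 37 exceeded 3 UMIs in every library. At the top stood Col1a2, Col3a1 and Col1a1, the chains of the major fibrils, with 338931, 256925 and 208946 UMIs over all libraries. At the bottom, the cartilage chains Col9a1 and Col2a1 had 6 and 10 UMIs and the growth plate chain Col10a1 had 33. Some were missing from single libraries: Col9a1 was at 0 in control 1, Col4a6 at 0 in Notch2 cKO 1, and Col19a1 at 0 in both batch 1 libraries. Batch 1 had the lower depth and also only 3 and 2 smooth muscle-like cells. It was also counted with another version of the software Cell Ranger (5.0.1 against 7.1.0 in batch 2). Which of these left Col19a1 at 0 was not tested. A level of 20 CPM in at least 2 libraries of at least 1 of the 4 gates was reached by 26 members: 8 of 11 fibrillar, 3 of 6 basement membrane, 6 of 6 beaded-filament, 4 of 9 fibril-associated, 2 of 8 short-chain, anchoring or transmembrane, and 3 of 4 multiplexin and other chains. Of these 26, the highest mean level was in the adventitial gate for 14, in the Schwann gate for 8, in the mural gate for 4 and in the reticular gate for 0. This ranking took the reticular gate as a whole, and Schwann means from batch 2 only. Col23a1 was near level, at 36.74 CPM in the Schwann and 36.69 CPM in the reticular gate, and B-zone reticular cells averaged 46.1 CPM. Col6a6 averaged 58.1 CPM in the adventitial gate and 83.3 CPM in B-zone reticular cells.

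**Figure D1:**
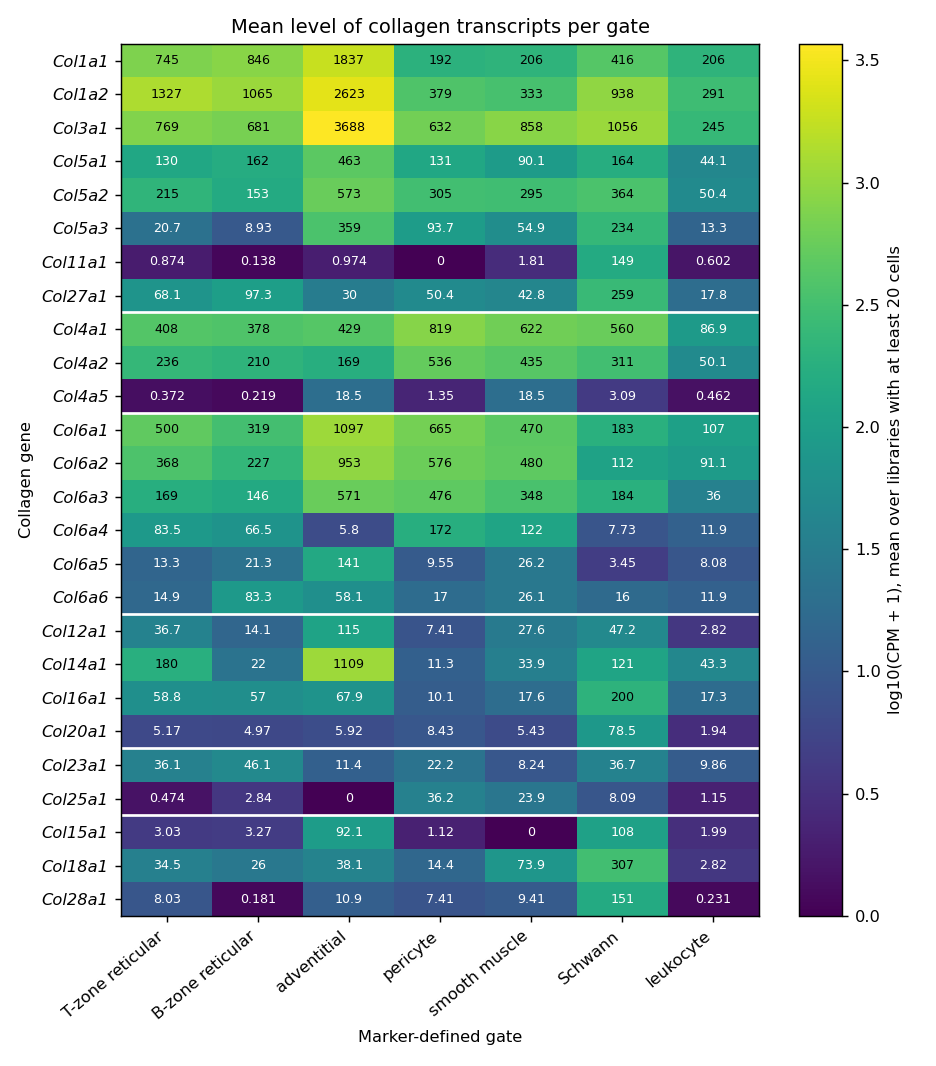
Mean level of the 26 collagens that reached 20 CPM, by gate; columns are marker-defined gates, rows are genes grouped by role, colour is log10(CPM + 1) and the printed number is the mean CPM over libraries with at least 20 cells. The adventitial column is the brightest for most fibrillar and beaded-filament rows, except Col11a1 and Col27a1 (Schwann), Col6a4 (pericyte) and Col6a6 (B zone). The leukocyte column shows the background, from free RNA or doublets, in cells not known to make these fibrils.

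Collagen transcripts took the largest share of RNA in the adventitial gate, at 1.45%, 1.72%, 1.35% and 1.27% of all UMIs. The reticular gate gave 0.554%, 0.642%, 0.482% and 0.469%, below every adventitial library. The mural gate gave 0.748%, 0.519% and 0.532% in Notch2 cKO 1, control 2 and Notch2 cKO 2, and the Schwann gate gave 0.671% and 0.549% in control 2 and Notch2 cKO 2. Gates also differed in which chains made up that share. The chains Col1a1, Col1a2 and Col3a1 together were 48.3% to 57.5% of collagen UMIs in the reticular gate, 54.9% to 59.1% in the adventitial gate, 38.6% to 40.2% in the Schwann gate and 17.4% to 26.3% in the mural gate. Leukocytes caught by the sort, which serve as the background of free RNA and of doublets, had 0.0894% to 0.251% of UMIs in collagens.

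Adventitial cells carried more of most collagens than reticular cells. Of 31 members tested, 17 were higher and 6 lower, a share of 74.2% against the 34.4% of all genes called in this comparison, 15.8% higher and 18.7% lower, and the median log2 difference was 1.20 for collagens and -0.06 for all genes tested. The fit had library as a block and 13 sums of cells.

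Among fibrillar chains, Col3a1, the chain of reticular and vessel-wall fibrils, read 3752, 4108, 3654 and 3238 CPM in adventitial cells and 839, 804, 771 and 627 CPM in reticular cells. The ranges did not overlap, and the log2 difference was 2.18 (SE 0.20, adjusted p = 2.53e-08, edgeR quasi-likelihood). Col5a3, a minor chain of collagen V that sets fibril growth, rose more, from 14.0 to 23.3 CPM in reticular libraries to 243 to 502 CPM in adventitial libraries (log2 difference 4.03, SE 0.20). Smaller differences in the same direction passed the test for Col5a1 (1.69), Col5a2 (1.35), Col1a1 (1.20) and Col1a2 (0.92). Col27a1, a fibrillar chain known from cartilage, went the other way, with 65.0 to 78.0 CPM in reticular and 21.8 to 35.5 CPM in adventitial libraries (log2 difference -1.35, SE 0.18).

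The beaded-filament genes split by chain. Col6a1, Col6a2 and Col6a3, which form the common collagen VI molecule, were higher in adventitial cells by 1.03, 1.30 and 1.74 on the log2 scale. Col6a4, Col6a5 and Col6a6 are alternative chains to Col6a3 encoded in tandem on chromosome 9, with gaps of 27917 bases between Col6a6 and Col6a5 and 28810 bases between Col6a5 and Col6a4. Of this cluster, Col6a5 was higher in adventitial cells (178, 314, 36.4 and 35.9 CPM against 9.79, 11.1, 21.9 and 15.8), whereas Col6a4 was lower (8.88, 1.06, 12.0 and 1.28 CPM against 96.9, 63.8, 95.3 and 70.7). The log2 differences were 2.64 (SE 0.49) for Col6a5, or 1.69 without Notch2 cKO 1, and -3.72 (SE 0.36) for Col6a4. Col6a6 was higher by 1.54 (SE 0.44), a call lost without Notch2 cKO 1 (log2 difference 0.61, adjusted p = 0.213, edgeR quasi-likelihood).

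Other roles were led by single genes. Col15a1, a multiplexin that links basement membranes to fibrils, read 93.2, 75.0, 83.4 and 117 CPM in adventitial cells and 2.47 to 3.39 CPM in reticular cells (log2 difference 4.78, SE 0.20). Col14a1, a fibril-associated collagen that limits fibril diameter, read 813, 1275, 1377 and 970 CPM against 269, 135, 160 and 80.2 (2.81, SE 0.29). Col4a5 was higher by 5.57 (SE 0.42), from at most 0.633 CPM in reticular to 4.23 to 33.3 CPM in adventitial libraries, whereas the general basement membrane chain Col4a2 was lower by 0.63 on the log2 scale, a call lost without control 2 (adjusted p = 0.120, edgeR quasi-likelihood). Col8a1, a short-chain network collagen of vessel walls named here after its values were seen, was higher by 4.91 (SE 0.41), from at most 1.17 CPM in reticular to 0, 2.11, 46.1 and 16.7 CPM. Transmembrane Col23a1 was lower (-1.83, SE 0.23). Col25a1, another transmembrane chain, had no UMI in the adventitial gate and 0.0641 to 2.14 CPM in the reticular gate, too near the limit of detection for a fold.

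Mural cells held other collagen chains than reticular cells. In this comparison, 10 of 31 members were higher and 9 lower (61.3%, against 29.7% of all genes called, 12.4% higher and 17.3% lower), with a median log2 difference of -0.19 for collagens and -0.05 for all genes. The basement membrane pair Col4a1 and Col4a2, whose genes overlap by 22 bases head to head on chromosome 8, was higher. Col4a1 read 1303, 723 and 878 CPM in Notch2 cKO 1, control 2 and Notch2 cKO 2, above every reticular library (362 to 443 CPM), with a log2 difference of 0.76 (SE 0.20, adjusted p = 0.00601, edgeR quasi-likelihood). That call was lost without control 2 or without Notch2 cKO 2 (adjusted p up to 0.121), and Col4a2 was higher by 0.90 (SE 0.20). The mural sum of Notch2 cKO 1 came from 20 cells and 26859 UMIs.

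Col25a1 separated mural cells from both fibroblast gates. It read 37.2, 37.4 and 31.8 CPM in mural cells against at most 2.14 CPM in reticular cells (log2 difference 4.34, SE 0.43), although the first value was 1 UMI. Against the adventitial gate, where it had 0 UMIs, it was at least 46.5-fold higher, taking 3 UMIs over the 3 libraries as the floor. Col5a3 (2.36, SE 0.23), Col6a3 (1.42, SE 0.24) and Col6a2 (0.73, SE 0.22) were also higher, the last not without control 2 or without Notch2 cKO 2 (adjusted p up to 0.181, edgeR quasi-likelihood). Of the major fibril chains, Col1a1 read 149, 203 and 158 CPM and was lower (log2 difference -2.20, SE 0.26), as was Col1a2 (-2.16, SE 0.24), while Col3a1, at 745, 809 and 616 CPM, did not pass the test. Leukocytes gave 133 to 396 CPM of Col1a1, a range that held the mural level. Whether these leukocyte UMIs came from free RNA or from doublets with fibroblasts was not tested. The mural gate also allowed at most 1 UMI of the general fibroblast markers. Col14a1 (-2.95) and Col16a1 (-2.19), both fibril-associated, were lower as well.

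Within the mural gate, smooth muscle-like cells (129 and 101 in batch 2) were compared with pericyte-like cells (247 and 151). Of 23 members tested, 4 were higher in smooth muscle and 0 lower (17.4%, against 8.09% of all genes called, 4.69% higher and 3.4% lower). At an unadjusted p under 0.05, 7 were higher and 6 lower, beside 819 higher and 761 lower among all 8022 genes tested. Col19a1, a fibril-associated chain of basement membrane zones named here after its values were seen, had 14 and 7 UMIs in smooth muscle (25.3 and 17.1 CPM) and 0 in pericytes. This is a level at least 11.1-fold higher, taking 3 UMIs over both libraries as the floor. Col18a1, the multiplexin that releases endostatin, read 101 and 46.4 CPM in smooth muscle against 14.6 and 14.2 CPM in pericytes (log2 difference 2.43, SE 0.34, adjusted p = 8.59e-05, edgeR quasi-likelihood). Col12a1 (1.87, SE 0.51) and Col14a1 (1.58, SE 0.45) were the other members.

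Schwann cells were set apart from reticular cells by minor fibrillar, basement membrane zone and fibril-associated chains. They were not tested against adventitial cells, where Col5a3 averaged 359 CPM against 234 CPM in Schwann cells. Against reticular cells, 10 of 31 members were higher and 4 lower (45.2%, against 25.7% of all genes called, 11.5% higher and 14.2% lower), with a median log2 difference of 0.20 for collagens and -0.10 for all genes. Col28a1, a short collagen known from peripheral nerve, read 189 and 114 CPM in control 2 and Notch2 cKO 2, against 0.769 to 13.9 CPM in reticular libraries (log2 difference 4.81, SE 0.63, adjusted p = 5.59e-06, edgeR quasi-likelihood). Col11a1, a fibrillar chain of cartilage and other tissues, read 77.3 and 221 CPM against at most 0.941 (7.16, SE 0.63). Col18a1 read 340 and 274 CPM against 30.4 to 36.6 (2.95, SE 0.26). The Schwann values of these genes lay above every reticular library.

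Further members higher in Schwann than in reticular cells were Col15a1 (4.72), Col5a3 (3.64), the fibril-associated chains Col20a1 (2.87) and Col16a1 (1.75), and Col27a1 (1.66). Col27a1 thus stood at 309 and 209 CPM in Schwann cells, 65.0 to 78.0 CPM in reticular cells and 21.8 to 35.5 CPM in adventitial cells. Lower members were Col6a4, with 5 and 0 UMIs (15.5 and 0 CPM), Col6a2 (-1.66), Col6a1 (-1.33) and Col1a1 (-0.92). The log2 difference of Col6a4 was -3.71, but -12.8 without control 2, which held all of its Schwann UMIs. Leaving out Notch2 cKO 2 ended the calls of Col6a2, Col6a1 and Col1a1 (adjusted p up to 0.055, 0.109 and 0.262, edgeR quasi-likelihood), and leaving out control 2 that of Col1a1.

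Within the reticular gate, B-zone and marginal cells (108, 78, 803 and 861) were compared with T-zone cells (5127, 4083, 5338 and 4780). Of 33 members tested, 5 were higher and 14 lower in the B zone, and 9 of these 19 passed under every alternative run (57.6% called, against 20.1% of all genes called, 9.85% higher and 10.2% lower), with a median log2 difference of -0.20 for collagens and -0.02 for all genes. Col14a1 read 18.1, 28.6, 28.8 and 12.6 CPM in B-zone cells and 283, 140, 195 and 99.8 CPM in T-zone cells (log2 difference -2.98, SE 0.15, adjusted p = 1.46e-07, edgeR quasi-likelihood). Col28a1 had 0, 0, 3 and 2 UMIs in B-zone cells and 189, 12, 679 and 89 in T-zone cells (-4.49, SE 0.46). The T-zone value was the higher of the pair in each library, but 3 UMIs of the B-zone gate equal 13.6 and 12.3 CPM in batch 1, where low levels could not be seen.

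Col6a6 ran the other way, with 81.3, 69.5, 110 and 71.7 CPM in B-zone cells and 14.0, 4.72, 33.4 and 7.43 CPM in T-zone cells (2.50, SE 0.27, adjusted p = 4.21e-05, edgeR quasi-likelihood). Col13a1, a transmembrane collagen of cell junctions named here after its values were seen, read 0, 12.3, 10.5 and 19.7 CPM against 0.157, 0.493, 0.738 and 0.782 CPM (4.17, SE 0.30), the first value resting on a gate whose floor of 3 UMIs is 13.6 CPM. Col25a1 was also higher in B-zone cells (2.67, SE 0.33), with UMIs only in batch 2 there. Col12a1 (-1.65), Col6a2 (-0.82), Col6a1 (-0.78) and Col5a2 (-0.60) were lower. Without Notch2 cKO 2, 10 members passed the test instead of 19, and among those that did not were Col5a3, Col18a1, Col6a3, Col26a1 and Col27a1 (adjusted p from 0.0879 to 0.781, edgeR quasi-likelihood).

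**Figure D2:**
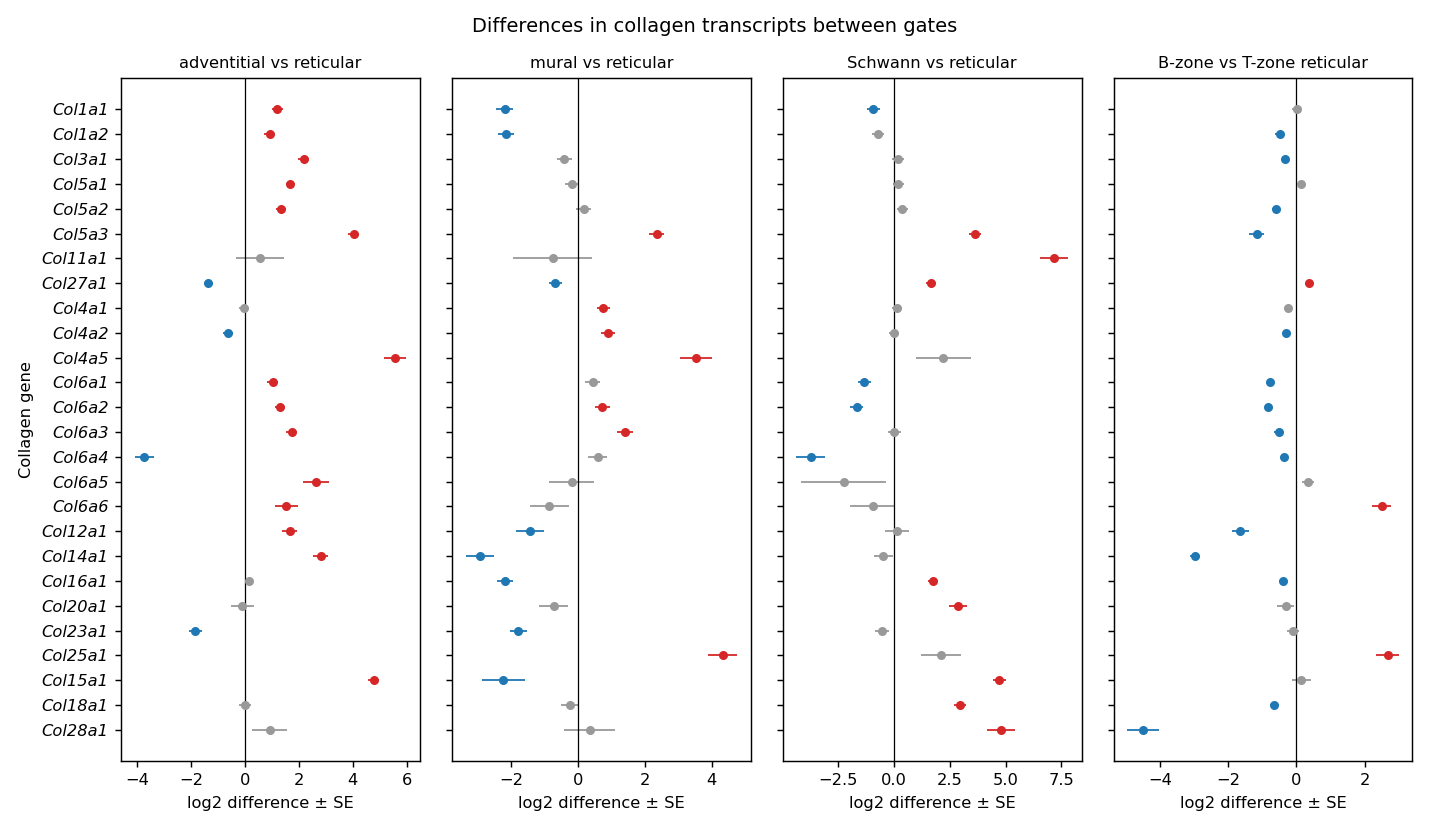
Log2 differences (points) with their standard errors (bars) for collagens that reached 20 CPM and were tested, in 4 comparisons of gates; red is higher and blue lower at an adjusted p under 0.05, grey did not pass. Col25a1 is not drawn in the adventitial panel, where it had no UMI; the adventitial panel holds mostly red points, and the B-zone panel more blue than red points.

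Genotype differences were few and all in 1 direction. In the reticular gate, 4 of 38 members tested were lower in the Notch2 cKO libraries and 0 were higher (10.5%, against 4.13% of all genes called, 2.11% higher and 2.02% lower). Unadjusted, 7 were lower and 0 higher at p under 0.05, beside 1308 lower and 1042 higher among all genes tested. The median log2 difference was -0.25 for collagens and 0.02 for all 16517 genes. The 4 members were Col28a1, Col6a6, Col14a1 and Col22a1.

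Col28a1 read 13.9 and 11.6 CPM in the control libraries (mean 12.7 ± 1.59, SD, n = 2) and 0.769 and 1.27 CPM in the Notch2 cKO libraries (mean 1.02 ± 0.353, SD, n = 2). Both Notch2 cKO libraries lay far below both control libraries. The counts behind these levels were 191, 12, 715 and 93 UMIs, and the log2 difference was -3.61 (SE 0.31, adjusted p = 0.000335, edgeR quasi-likelihood), or -4.08 within batch 1 and -3.23 within batch 2. With every cell thinned to 1000 UMIs, 1.49% and 1.09% of control cells and 0.0895% and 0.100% of Notch2 cKO cells had a Col28a1 UMI; unthinned shares were 3.04%, 0.224%, 6.18% and 0.987%. In leukocytes, which should lack the gene, the shares were 0%, 0%, 0% and 0.429% unthinned, with median depths of 1652, 2294, 3944 and 3288 UMIs against 2302, 3248, 7747 and 9901 in reticular cells.

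Marker genes of Schwann cells, the gate with the most Col28a1, summed to 14.4, 24.6, 20.8 and 35.5 CPM in the reticular gate. This sum was higher in the Notch2 cKO library of each batch. Cells with 3 or more Schwann marker UMIs after thinning were kept out of the reticular gate, so the gate itself limited this sum. The Schwann markers Cdh19, Kcna1, Gfra3 and Foxd3 had no UMI in either batch 1 reticular sum. The T-zone markers read 23427, 17520, 19825 and 19806 CPM, lower in the batch 1 Notch2 cKO library and near equal in batch 2. Other lists moved with genotype in both batches. The 7 smooth muscle markers summed to 106 and 163 CPM in the control libraries and to 18.2 and 72.1 CPM in the Notch2 cKO libraries, with Casq2 and Rergl at 0 in both batch 1 sums. The 12 mural markers, which include them, read 1074 and 1104 CPM against 745 and 891 CPM. The 5 general fibroblast markers went the other way, with 5185 and 5030 CPM in control and 7034 and 6116 CPM in Notch2 cKO libraries. Each of the 4 collagen differences had the same sign within both batches. The part of all these markers in them was not tested.

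Col28a1 lies on the minus strand of chromosome 6 (mm10, 7997808 to 8192617) and Col6a6 on the minus strand of chromosome 9 (105687809 to 105828160). Their promoters are shown because both genes were lower in the Notch2 cKO libraries and Notch signals through RBPJ. The sequences come from RefSeq (GRCm38.p6), are read 5′ to 3′ on the gene's strand and end just before the annotated gene start. Capitals mark TGGGAA, the core of the RBPJ site, searched on both strands (TGGGAA or TTCCCA).
Col28a1, chr6:8192618-8192867: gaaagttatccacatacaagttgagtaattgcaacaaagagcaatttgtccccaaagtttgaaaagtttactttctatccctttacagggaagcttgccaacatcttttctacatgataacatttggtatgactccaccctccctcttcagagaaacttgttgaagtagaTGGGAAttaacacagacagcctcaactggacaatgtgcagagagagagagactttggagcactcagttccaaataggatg
Col6a6, chr9:105828161-105828335: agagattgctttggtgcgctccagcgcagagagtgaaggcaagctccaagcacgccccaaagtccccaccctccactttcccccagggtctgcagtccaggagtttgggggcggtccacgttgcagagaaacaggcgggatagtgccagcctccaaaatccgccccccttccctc
The Col28a1 stretch of 250 bases holds 1 match, 80 bases before its end, and the Col6a6 stretch of 175 bases holds none, while a match lies elsewhere in the promoter window given for Col6a6. The core was found in 21.6% of all 32851 promoter windows and in 24.1% of genes, against 12 of the 35 collagens in the table (34.3%). A match of these letters is a description of the sequence and not a binding site. Col14a1 (chromosome 15, plus strand, 55307750 to 55520803) and Col22a1 (chromosome 15, minus strand, 71795795 to 72034227) are the other members.

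Col6a6 read 16.1 and 49.3 CPM in the control libraries and 5.83 and 15.3 CPM in the Notch2 cKO libraries, each Notch2 cKO library below its batch's control, with control 1 close to Notch2 cKO 2. The log2 difference was -1.65 (SE 0.21, adjusted p = 0.00211, edgeR quasi-likelihood), or -1.45 and -1.77 within the batches. Its tandem neighbours Col6a5 and Col6a4 did not pass the test, and Col6a4 read 96.9, 63.8, 95.3 and 70.7 CPM (-0.57, adjusted p = 0.161, edgeR quasi-likelihood). Leukocytes, the measure of background, followed the same order in batch 2, with 29 Col6a6 UMIs in control 2 and 6 in Notch2 cKO 2 (21.6 and 5.54 CPM). In batch 1 they went the other way, with 0 UMIs in control 1 and 3 in Notch2 cKO 1 (20.5 CPM), from 27 and 44 cells.

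Col14a1 read 269 and 160 CPM in control and 135 and 80.2 CPM in Notch2 cKO libraries, so the groups did not overlap (log2 difference -1.05, SE 0.21, adjusted p = 0.0231, edgeR quasi-likelihood; -0.98 and -1.09 within the batches). Col22a1, a fibril-associated chain of tissue junctions, had 29, 11, 229 and 88 UMIs (2.10, 0.705, 3.72 and 1.20 CPM) and a log2 difference of -1.68 (SE 0.38, adjusted p = 0.0367, edgeR quasi-likelihood). It lost its call under DESeq2 and without the cells of most UMIs. With any 1 library left out and no batch term, the log2 differences were -4.05 to -3.47 for Col28a1, -2.47 to -0.79 for Col6a6, -1.57 to -0.56 for Col14a1 and -2.04 to -1.30 for Col22a1. Only Col28a1 then passed, and only without Notch2 cKO 2 (adjusted p = 0.0420, edgeR quasi-likelihood).

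**Figure D3:**
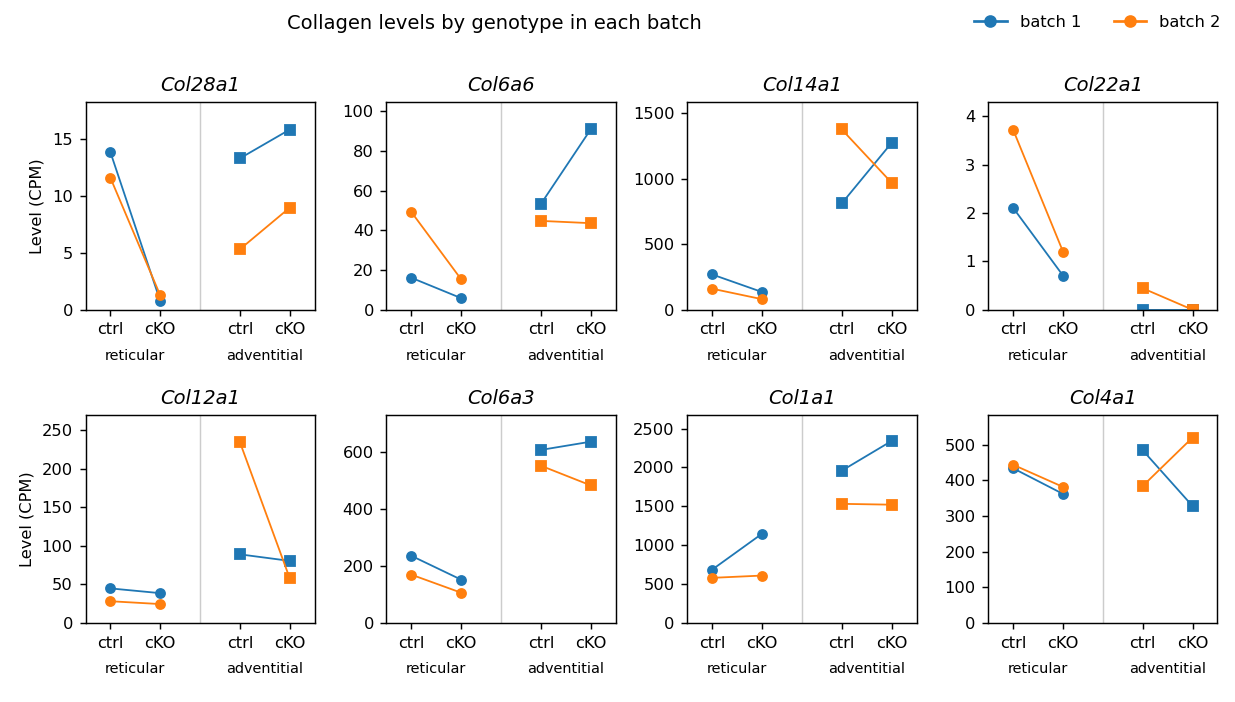
Levels in CPM (vertical axes, each from 0) of 8 collagens in control (ctrl) and Notch2 cKO libraries of the reticular gate (circles, left) and adventitial gate (squares, right); lines join the 2 libraries of a batch, blue for batch 1 and orange for batch 2. In the reticular gate both lines fall for Col28a1, Col6a6, Col14a1 and Col22a1; in the adventitial gate the lines of Col14a1 and Col6a6 go opposite ways.

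Apart from Col14a1 (mean 161 CPM), the abundant chains of the reticular gate did not pass the test. Col1a1 read 686, 1147, 579 and 609 CPM, higher in the batch 1 Notch2 cKO library and near level in batch 2 (log2 difference 0.35, SE 0.31, adjusted p = 0.743, edgeR quasi-likelihood). Col1a2 (0.38), Col3a1 (-0.23), Col4a1 (-0.29), Col4a2 (-0.01), Col6a1 (0.12), Col6a2 (-0.02), Col12a1 (-0.26), Col16a1 (0.20), Col23a1 (-0.01) and Col18a1 (-0.09) had adjusted p-values of 0.648 or more in the same edgeR fit. Nearest to the threshold among the abundant members was Col6a3, the collagen VI chain that binds other matrix, with 236, 152, 170 and 106 CPM (-0.71, SE 0.21, adjusted p = 0.120, edgeR quasi-likelihood; called under DESeq2). Of the 18 members at 20 CPM or more in at least 2 reticular libraries, 6 were lower in both batches, 3 higher in both and 9 went opposite ways. The share of all genes going opposite ways was not counted, so these counts do not set collagens apart from other genes.

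**Figure D4:**
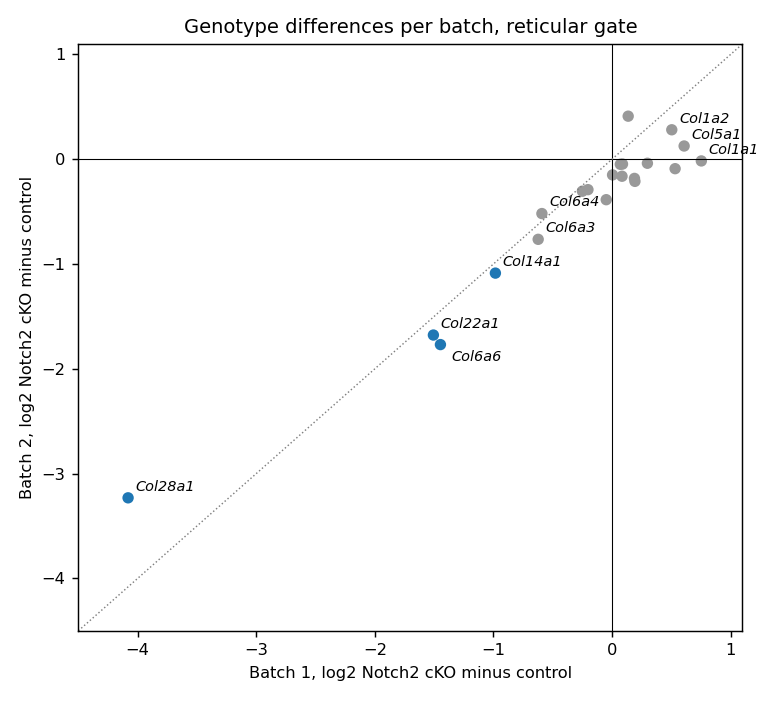
Log2 difference between Notch2 cKO and control in batch 1 (horizontal) and batch 2 (vertical) for collagens of the reticular gate; each point is a gene, blue points passed the test and the dotted line marks equal differences. The 4 blue points lie below 0 on both axes, from -0.98 and -1.09 for Col14a1 to -4.08 and -3.23 for Col28a1.

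In T-zone cells alone, 4 of 37 members were lower and 0 higher (10.8%, against 4.63% of all genes called, 2.4% higher and 2.23% lower): Col28a1 (-3.53), Col6a6 (-1.97), Col22a1 (-1.85) and Col14a1 (-1.05). In B-zone cells 0 of 26 passed in edgeR, against 1.14% of all genes called, 0.422% higher and 0.72% lower. At an unadjusted p under 0.05, 1 was higher and 4 lower, beside 204 higher and 480 lower among all 12084 genes tested in B-zone cells. Col6a6 there was at -0.61, and Col6a3 at -1.04 (adjusted p = 0.0518, edgeR quasi-likelihood). The difference between the zones was not tested, and the B-zone gate had 78 to 108 cells in batch 1. Over all fibroblasts (7644 to 14099 cells a library), 1 of 39 members was lower (2.56%, against 1.9% of all genes called, 1.16% higher and 0.743% lower). This was Col28a1, with 10.9, 2.36, 9.10 and 2.63 CPM (-2.04, adjusted p = 0.011, edgeR quasi-likelihood). In fibroblasts of neither the reticular nor the adventitial gate, 0 of 38 passed (against 0.488% of all genes, 0.389% higher and 0.0989% lower), and Col28a1 was at -0.04. Unadjusted, 2 members were higher and 3 lower there, beside 782 higher and 749 lower among all 15160 genes tested.

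Adventitial cells showed no called member: 0 of 23 passed in edgeR, against 0.0463% of all genes called, 0.0116% higher and 0.0347% lower, and 0 under DESeq2. Unadjusted, 0 members were higher and 2 lower, beside 139 higher and 163 lower among all 8641 genes tested. Col14a1 was at 0.03 (SE 0.38), Col6a6 at 0.25 (SE 0.35) and Col28a1 at 0.51 (SE 0.62) on the log2 scale. The batches disagreed for Col14a1 (0.77 and -0.66), for Col6a6 (0.86 and -0.18) and for Col6a5 (0.93 and -0.16). They also disagreed for Col8a1 (1.10 and -1.51, from 0, 2, 104 and 13 UMIs), one of the 2 members lower at an unadjusted p (-1.39), the other being Col12a1 (-1.25). Of the 20 members at 20 CPM, 15 went opposite ways in the batches, 4 were lower in both and 1 was higher in both. Here too the share over all genes was not counted. Col6a5 was likewise opposite over all fibroblasts (1.21 and -0.54), in B-zone cells (1.80 and -0.55) and in the remaining fibroblasts (1.17 and -0.22), and Col14a1 was in B-zone cells (0.66 and -1.24).

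The genotype difference itself was compared between the gates, as the adventitial minus the reticular log2 difference. It differed for 4 of 35 members, 3 toward higher and 1 toward lower values (11.4%, against 1.75% of all genes called, 0.611% higher and 1.14% lower). The value was 4.11 for Col28a1 (SE 0.75, adjusted p = 9.36e-06), 1.85 for Col6a6 (SE 0.32, adjusted p = 2.59e-06) and 1.07 for Col14a1 (SE 0.21, adjusted p = 9.94e-05), all by the edgeR quasi-likelihood test. This fit took the spread of every gene from the trend over all genes. A gene's own spread between libraries therefore did not widen its SE. Within the batches, Col14a1 differed by 0.77 and -0.66 in adventitial cells and by -0.98 and -1.09 in reticular cells. Its p-value does not measure how far these batches disagreed. The adventitial Col28a1 levels of 13.3, 15.9, 5.32 and 8.98 CPM rest on 3, 15, 12 and 7 UMIs. Col12a1, a fibril-associated chain of stressed tissue, gave -1.07 (SE 0.27, adjusted p = 0.00751, edgeR quasi-likelihood), from adventitial levels of 88.8, 80.3, 234 and 57.7 CPM. That value rests on batch 2: within-batch differences were -0.03 and -2.14 in adventitial cells and -0.20 and -0.29 in reticular cells.

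Mural and Schwann genotype differences had 1 pair of libraries, from batch 2, and no test. In mural cells, control 2 and Notch2 cKO 2 read 723 and 878 CPM of Col4a1 (95% exact Poisson intervals 686 to 760 and 832 to 926) and 809 and 616 CPM of Col3a1 (771 to 849 and 577 to 656). Col25a1 read 37.4 and 31.8 CPM with intervals that overlapped (29.5 to 46.7 and 23.5 to 42.1). In Schwann cells, Col11a1 was lower in the control than in the Notch2 cKO library (77.3 against 221 CPM, intervals 50.1 to 114 and 167 to 285). Col20a1 was higher in the control library (111 against 45.6 CPM, intervals 78.0 to 154 and 23.6 to 79.7, which overlap slightly), and so was Col6a3 (266 against 103 CPM, intervals 213 to 329 and 67.7 to 149). Col28a1 read 189 and 114 CPM (intervals 144 to 242 and 77.0 to 163). These intervals cover counting error only and not the spread between mice.

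**Figure D5:**
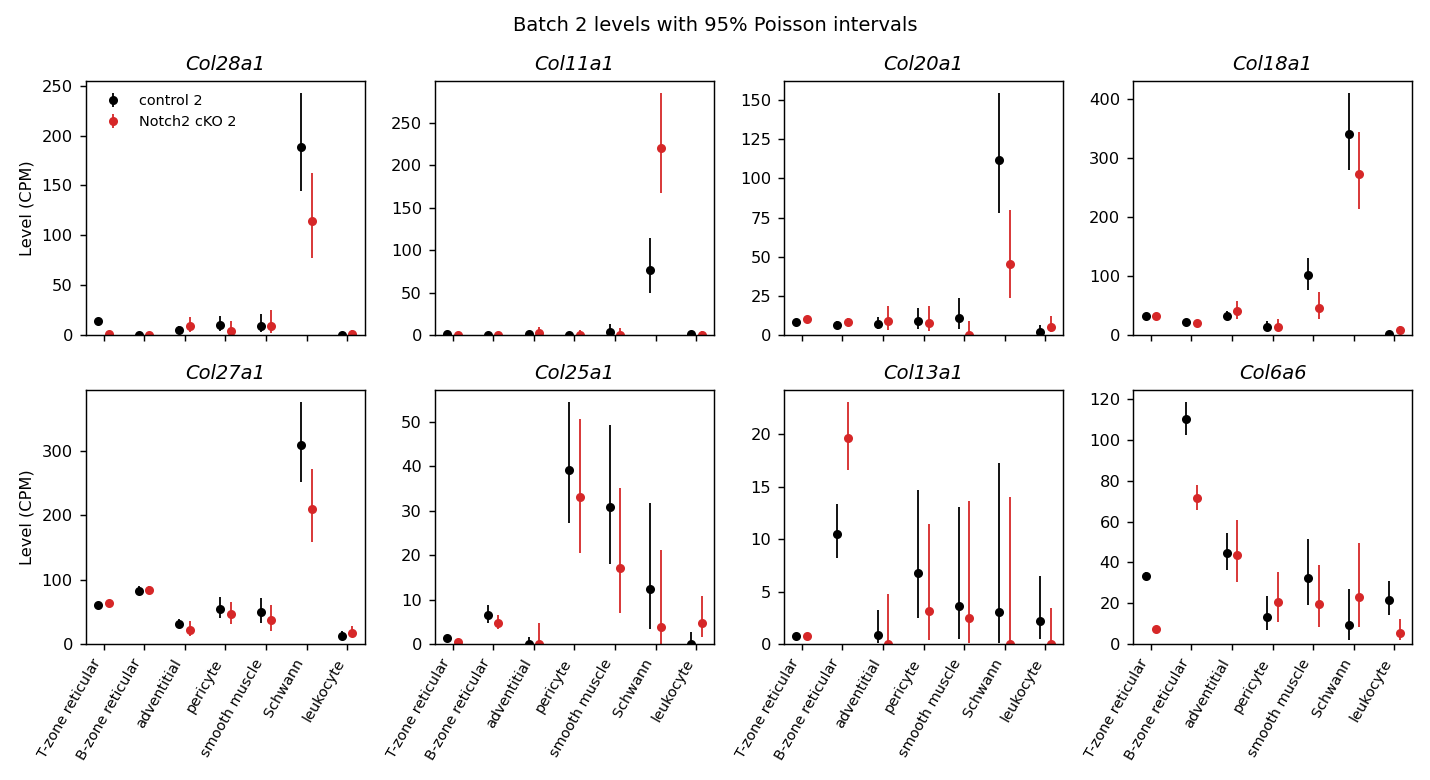
Levels in CPM (vertical axes, each from 0) of 8 collagens in the gates of batch 2, for control 2 (black) and Notch2 cKO 2 (red); bars are exact 95% Poisson intervals of the counts. Col28a1, Col11a1, Col20a1, Col18a1 and Col27a1 peak in the Schwann gate, Col25a1 in the pericyte and smooth muscle gates, and Col13a1 and Col6a6 in the B-zone gate.

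Genes that modify, process or cross-link collagen were examined as a list of 30, and collagen receptors as a list of 10, both drawn up with earlier results of these data known. In the reticular gate, 3 of 29 maturation genes tested were higher in the Notch2 cKO libraries and 0 lower, beside 2.11% and 2.02% of all genes. The list median was 0.15 and that of all genes 0.02. The 3 genes were P4ha3, a prolyl hydroxylase subunit (2.96, SE 0.35, adjusted p = 0.00155), Plod2, the lysyl hydroxylase of collagen ends (1.20, SE 0.21, adjusted p = 0.0122), and Loxl1, a lysyl oxidase (0.87, SE 0.19, adjusted p = 0.036), all by edgeR quasi-likelihood. Of 8 receptors tested, only Mrc2, which takes up collagen for degradation, was higher (1.52, SE 0.23, adjusted p = 0.00474, edgeR quasi-likelihood). In the adventitial gate 0 of 24 maturation genes and 0 of 7 receptors passed, where only 0.0463% of all genes were called. The gate difference itself passed for 2 of 30 maturation genes, P4ha3 (-3.51) and Loxl1 (-0.97), and for 1 of 8 receptors, Mrc2 (-1.94). Of all genes, 1.75% were called in that comparison.

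Between gates, most called maturation genes were higher in adventitial cells and lower in mural and Schwann cells. In adventitial against reticular cells, 15 of 28 were higher and 3 lower (34.4% of all genes were called), led by the procollagen processing genes Pcolce2 (7.56) and Bmp1 (2.36), the lysyl oxidase Loxl2 (3.49) and the glycosyltransferase Colgalt2 (3.98). In mural against reticular cells, 5 were higher and 13 lower (29.7% of all genes), with Colgalt2 (4.16) and the prolyl hydroxylase P3h2 (2.54) higher and Plod2 (-1.92) lower. In Schwann cells 2 of 28 were higher and 8 lower, where 25.7% of all genes were called. The collagen-binding integrin chains separated the gates: Itga11 was higher (2.88) and Itga1 lower (-3.62) in adventitial than in reticular cells, and Itga11 was lower in mural cells (-1.82) and in B-zone cells (-2.07).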

How the data were processed

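Droplet libraries (10x 3′ v3.1, per the labels' protocols) were deposited as raw UMI counts per gene and cell. Per the file headers, the authors used Cell Ranger 5.0.1 for batch 1 but 7.1.0 for batch 2; the submitters' processing notes name 5.0.1 and mm10. Whether introns were counted is not given in the labels or headers: tests carried batch or library as a term, but levels set side by side across batches carry any difference in counting.

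The cell filter required 500 genes and 1000 UMIs or more, with a mitochondrial share up to 10%. Each cell was thinned to 1000 UMIs and gated by marker sums; thresholds were set after the data were seen, and gate names rest on these markers. Cells positive for several lineages were left out, and no doublet caller was run. Counts were summed per library and gate and tested with edgeR 4.0.16 (quasi-likelihood, TMM, filterByExpr, R 4.3.3), with batch or library as a term and Benjamini-Hochberg adjustment over all genes at 0.05. Genotype fits have 1 residual degree of freedom and borrow spread from other genes. Mice were pooled, so p-values measure the spread between libraries. In the comparison of genotype effects and the genotype fit of B-zone cells, that spread came wholly from other genes. Their p-values do not measure a gene's own spread. DESeq2 1.42.0 was an alternative.

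The batch number pairs libraries by the labels; deviations of same-numbered libraries correlated at r = 0.827 over 16517 genes of the reticular gate and at 0.502 over 8641 of the adventitial gate. Members and lists were chosen with earlier results of these data known. Named with values were members at 20 CPM in 2 libraries of a gate, members past a genotype test, the 3 most abundant of a role and members at that level whose batches differed by more than 1 in opposite directions; others were chosen after their values were seen. Of the steps, only the reticular genotype fit and the adventitial against reticular fit were run on simulated counts. These counts had a common spread for all genes and no batch effect, so they do not test the batch term. Thinning and gating were not simulated. Positions are from GENCODE (mm10).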

Additional observations from a re-analysis of the deposited data

Results flagged for a closer look

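For 4 collagens the Notch2 cKO difference in adventitial cells departed from that in reticular cells, by a test of the difference itself (edgeR quasi-likelihood, Benjamini-Hochberg over all genes). That test took its spread from the trend over all genes and not from each gene's own libraries, and no alternative processing was run for it. Adventitial minus reticular, the log2 value was 4.11 for Col28a1, 1.85 for Col6a6, 1.07 for Col14a1 and -1.07 for Col12a1. For Col28a1, Col6a6 and Col14a1 the within-batch differences of the adventitial gate (0.33 and 0.47, 0.86 and -0.18, 0.77 and -0.66) lay above those of the reticular gate (-4.08 and -3.23, -1.45 and -1.77, -0.98 and -1.09) in both batches. For Col12a1 they lay above in batch 1 (-0.03 against -0.20) and below in batch 2 (-2.14 against -0.29).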

How the results depend on the processing

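No called collagen changed sign under any alternative run. No alternative of any kind was run for the comparison of genotype effects or for that of mural subtypes. Genotype calls rested on the batch term and on all libraries. With no replicate block, 0 collagens were called in the reticular gate and 0 over all fibroblasts, and 0 genes of any kind in these gates and in the adventitial gate. Leaving out 1 library (no batch term, a lone library assumed to vary like the others) gave 0 to 1 in the reticular gate and 0 to 0 over all fibroblasts, with 0 to 38 and 0 to 21 genes of any kind in place of 682 and 338. No filter on low counts gave 2 collagens over all fibroblasts, and 1397 and 757 genes of any kind in the reticular gate and over all fibroblasts. The B-zone cells alone gave 0 collagens and 138 genes, the remaining fibroblasts alone 0 and 74; these subsets were added after the data were seen. A stricter cell filter gave 162 genes over all fibroblasts. In the adventitial gate 4 genes were called, and between 0 and 16 under the alternatives. Between gates, leaving out 1 library gave 10 to 18 called collagens in the B-zone comparison, lowest without Notch2 cKO 2 (10); genes of any kind fell from 2941 to 1539 there, from 3128 to 1901 for Schwann and from 3617 to 2395 for mural cells without Notch2 cKO 2, and from 4056 to 2627 for mural against adventitial cells without control 2. Uncalled members of the reticular genotype comparison changed sign in 51 of 430 values. The comparison of genotype effects and that of mural subtypes had no residual degree of freedom left without a library, and the mural genotype fits were not run because the batch term leaves none with 3 libraries. In batch 1, 3 UMIs equal 0.218 and 0.192 CPM in the reticular gate but 13.3 and 3.17 CPM in the adventitial gate, so low members could not be compared there.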

Other observations

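Epithelial cells caught by the sort (47, 43 and 23 cells in control 1, control 2 and Notch2 cKO 2) carried Col8a1, Col4a5, Col4a6 and Col17a1. Col8a1, a short-chain network collagen, read 7.79, 349 and 621 CPM, from 1, 201 and 168 UMIs, against up to 46.1 CPM in an adventitial library. The basement membrane chains Col4a5 (38.9, 93.7 and 159 CPM) and Col4a6 (38.9, 92.0 and 70.2 CPM), whose genes lie head to head 1308 bases apart on chromosome X, were both present in each library; the adventitial gate reached 33.3 CPM of Col4a5, and no reticular, adventitial, mural or Schwann library exceeded 2.43 CPM of Col4a6. Col17a1, the transmembrane collagen of hemidesmosomes, read 38.9, 41.6 and 51.7 CPM, against at most 0.218 CPM in the reticular gate. These levels were not tested.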
